A study of Mus musculus with 16 samples.

Results

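Expression of 10 genes of the plaque-associated microglia state, Cst7, Itgax, Gpnmb, Spp1, Clec7a, Axl, Lgals3, Ch25h, Cd63 and Cd68, was followed in oligodendrocyte preparations from mouse brain. The genes were chosen by symbol, and all 10 were found among the 53801 genes of the count table and were also among the 21768 genes with enough counts to be tested. RNA was sequenced from 16 male mice in 4 groups of 4. C57BL/6J Jcl mice served as wild type (WT), and App mice were homozygous for App NL-G-F, a knock-in that puts a humanized amyloid-beta region and the Swedish, Beyreuther/Iberian and Arctic mutations into the mouse's own App gene in every cell of the body. From 2 months of age, mice of each genotype received for 6 months either the control diet CE-2 (NCD, 12.5% of energy as fat) or the high-fat diet D12492 (HFD, 60.0% of energy as fat), and all 4 groups were sampled at 8 months, after perfusion with saline. Oligodendrocyte lineage cells were isolated from dissected brain with magnetic beads. The WT mice were bought in and the App mice came from an inbred line, so the genotype and the origin of the mice cannot be told apart.

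Microglia are the resident macrophages of the brain, and in mice that deposit amyloid-beta the cells around plaques take up a state in which phagocytic, lysosomal and lipid-handling genes are raised. That state depends in large part on the receptor TREM2 and its adaptor TYROBP. The genes described here cover several layers of it. Spp1 encodes the secreted phosphoprotein osteopontin, and Lgals3 encodes galectin-3, a secreted and cytoplasmic lectin. Itgax encodes the integrin CD11c, Clec7a the beta-glucan receptor dectin-1 and Axl a receptor tyrosine kinase for bridged apoptotic material. Cst7 encodes cystatin F, an inhibitor of lysosomal cysteine proteases, Gpnmb a transmembrane glycoprotein of lysosomes and the cell surface, Cd68 a heavily glycosylated lysosomal membrane protein and Cd63 a tetraspanin of late endosomes. Ch25h encodes cholesterol 25-hydroxylase, which makes an oxysterol.

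The promoters of the 10 genes were searched for short sequence motifs, and those that hold the motif TGANTCA are printed. RefSeq promoters (GRCm38.p6, the build also called mm10) were matched for 10 of the 10 genes, each from 250 bases before to 50 bases after the annotated start, and were searched on both strands for TGANTCA (the AP-1 site), GAGGAAG (a PU.1-type ETS core), CACGTG (the E-box bound by TFEB and MITF) and CATGTG (a MITF-type E-box). No letters of the different motifs overlapped in these promoters. TGANTCA was present in 4 of 10 promoters, those of Cst7, Itgax, Gpnmb and Cd68, against 7.81% of 32851 promoters of the same length. Its match began 6 bases before the start in Cst7, 56 before it in Itgax and 8 after it in Gpnmb, and Cd68 held a pair of matches, 149 and 24 bases before the start. The sequences below run from 250 bases before the start to 30 bases from it on, 5′ to 3′ in the direction of the gene, with TGANTCA in capitals.
Cst7, chr2:150570165-150570444, plus strand: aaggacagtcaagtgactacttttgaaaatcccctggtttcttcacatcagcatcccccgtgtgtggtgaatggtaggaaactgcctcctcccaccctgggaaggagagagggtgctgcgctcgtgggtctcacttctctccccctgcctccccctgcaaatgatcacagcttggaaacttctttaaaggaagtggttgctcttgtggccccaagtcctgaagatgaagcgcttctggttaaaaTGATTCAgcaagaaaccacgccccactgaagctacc
Itgax, chr7:128129300-128129579, plus strand: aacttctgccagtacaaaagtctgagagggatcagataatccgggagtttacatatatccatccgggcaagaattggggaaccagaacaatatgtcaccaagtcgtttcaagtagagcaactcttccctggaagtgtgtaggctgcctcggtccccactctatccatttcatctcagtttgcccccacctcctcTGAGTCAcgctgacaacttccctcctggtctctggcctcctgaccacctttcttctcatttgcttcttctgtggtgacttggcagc
Gpnmb, chr6:49036268-49036547, plus strand: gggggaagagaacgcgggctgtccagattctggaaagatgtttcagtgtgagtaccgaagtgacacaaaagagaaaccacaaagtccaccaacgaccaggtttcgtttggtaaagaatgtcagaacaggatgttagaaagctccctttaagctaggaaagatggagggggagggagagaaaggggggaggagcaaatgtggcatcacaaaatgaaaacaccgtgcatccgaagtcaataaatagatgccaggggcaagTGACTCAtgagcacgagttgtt
Cd68, chr11:69666141-69666420, minus strand: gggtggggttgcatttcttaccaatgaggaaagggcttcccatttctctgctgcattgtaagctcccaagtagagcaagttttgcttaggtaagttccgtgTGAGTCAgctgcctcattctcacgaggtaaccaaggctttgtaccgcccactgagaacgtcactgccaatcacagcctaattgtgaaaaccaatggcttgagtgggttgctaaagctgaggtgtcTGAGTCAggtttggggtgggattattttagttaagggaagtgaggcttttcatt
GAGGAAG was present in 3 of 10 promoters, those of Spp1, Axl and Cd63, against 13.6% of all. Neither CACGTG (7.15% of all promoters) nor CATGTG (14.2%) was present in any of the 10. The RefSeq start lay within 28 bases of the GENCODE gene start for 8 of the genes, 6109 bases away for Lgals3 and 8356 bases away for Cd63. A match describes the letters only, and factor binding was not measured here.

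Library totals ranged from 64538297 to 217925484 estimated read counts. The preparations carried abundant myelin RNA, since 10 oligodendrocyte markers (Mbp, Mog and others) summed to 24490 to 47084 CPM (read counts per fixed library total, with totals scaled by edgeR's TMM factors), and 0 of the 10 passed the test between genotypes on either diet. Microglial RNA was present in every library too: 15 general microglial genes (Csf1r, Aif1, C1qa and others, called the microglial reference here) summed to 2848 to 6458 CPM in WT and 7592 to 17394 CPM in App mice. In sorted bulk RNA, a higher level of a microglial gene cannot be told apart as more microglia in the preparation or more of that RNA per cell. The library of App-NCD mouse 553 stood apart from the others. It had counts above 0 for 18928 genes against 27151 to 30617 in the other 15 libraries, and 39.4% of its counts were mitochondrial against 1.22% to 4.62%. The biological spread (edgeR's biological coefficient of variation) was 36.5% with that library and 26.3% without it, so results on the control diet are given with and without mouse 553.

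All 10 genes had a higher fitted level in App than in WT mice on both diets, by fold changes between 1.2 and 942 on the control diet and between 1.71 and 625 on the high-fat diet. On the control diet 9 of the 10 passed edgeR's quasi-likelihood test (Benjamini-Hochberg adjusted p under 0.05 over all genes tested), where 6.5% of all genes tested were called higher. On the high-fat diet the same count was 9 of 10, against 5.09% of all genes. Cd63 was the gene that did not pass on either diet. The median log2 fold change of the 10 genes was 4.28 on the control diet and 4.20 on the high-fat diet, beside -0.02 and 0.01 over all genes tested. Without mouse 553 the counts were 9 of 10 (10.2% of all genes) on the control diet and 10 of 10 (10.8%) on the high-fat diet. The genes whose control-diet value without mouse 553 is not given with their levels further on were at log2 9.72 ± 0.59 SE for Cst7, 6.91 ± 0.28 for Itgax, 6.77 ± 0.29 for Gpnmb, 6.46 ± 0.45 for Spp1, 4.74 ± 0.35 for Clec7a and 2.62 ± 0.52 for Ch25h in that fit, and 6 of these 6 passed. In the raw separation of the groups, the lowest App mouse lay above the highest WT mouse for 7 of 10 genes on the control diet (7.66% of all genes), for 9 of 10 without mouse 553 (14.5%) and for 10 of 10 on the high-fat diet (15%).

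**Figure D1:**
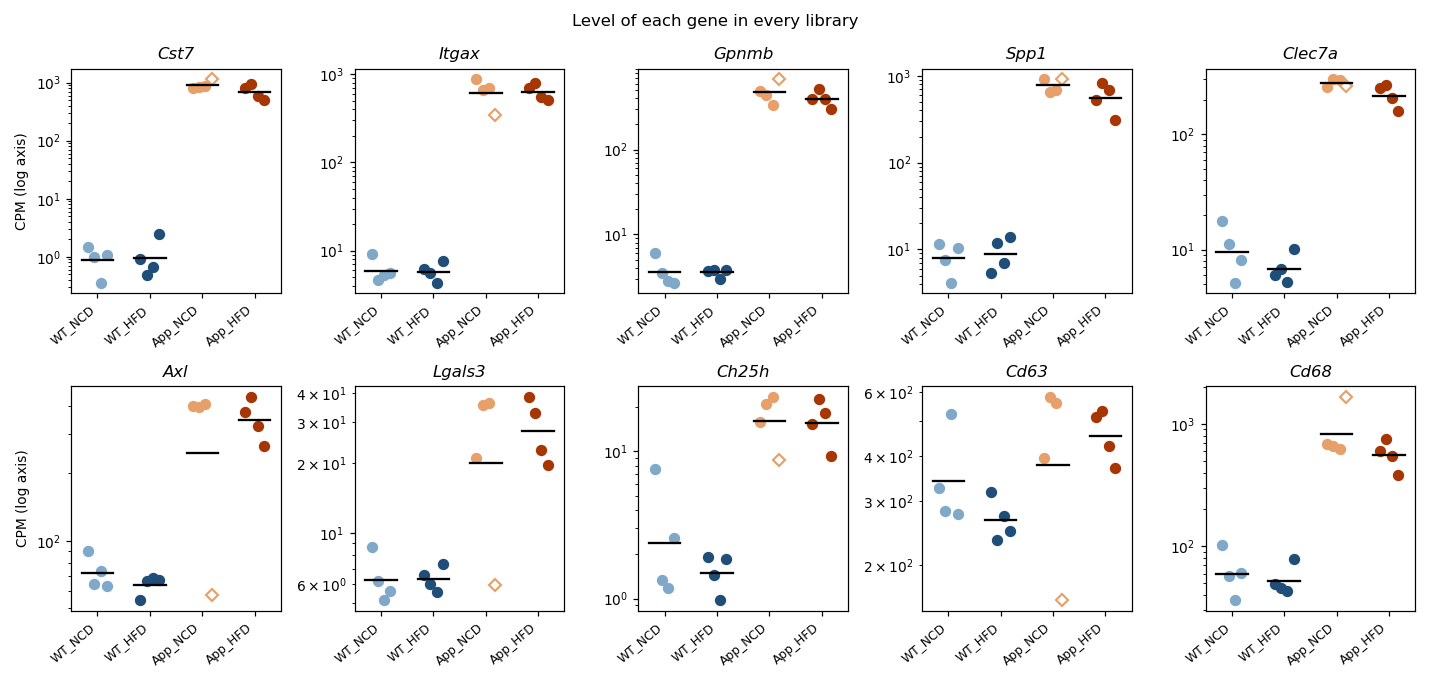
Level of each of the 10 genes in every library, in CPM on a log axis, by group. Points are mice, bars are group means of log2 CPM and the open diamond is App-NCD mouse 553. Cst7 shows the widest gap between genotypes, and the diamond lies among or below the WT points for Axl, Lgals3 and Cd63 and far above all other mice for Cd68.

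Among the secreted proteins, Spp1 (ENSMUSG00000029304, chr5:104435118-104441050 of mm10, plus strand, protein coding) ranked with the most changed genes. Its level was 11.7, 7.55, 4.15 and 10.5 CPM in the WT-NCD mice and 5.41, 11.7, 6.96 and 14.0 CPM in the WT-HFD mice. It was 926, 655, 691 and 924 CPM in the App-NCD mice and 524, 818, 681 and 313 CPM in the App-HFD mice. Every App mouse lay far above every WT mouse, and mouse 553 lay inside the range of its own group on the TMM scale. The fitted difference was 94.4-fold on the control diet (log2 6.56 ± 0.45 SE, adjusted p = 3.4e-07) and 61.4-fold on the high-fat diet (log2 5.94 ± 0.44 SE, adjusted p = 7.22e-07). Osteopontin signals through CD44 and several integrins, and of 7 such receptor genes 2 rose on each diet. Itgb3, the beta-3 chain of the vitronectin receptor, rose on both (log2 2.34 ± 0.27 and 2.56 ± 0.27, edgeR adjusted p = 5.93e-05 and 3.16e-05). Cd44 passed on the control diet (log2 1.28, adjusted p = 0.0232) but not on the high-fat diet (0.46, adjusted p = 0.554), and Itgb5 passed on the high-fat diet (1.45, adjusted p = 0.0457) but not on the control diet (0.86, adjusted p = 0.196). Neither receptor gene passed edgeR's test of a difference between the diets. Itgav, which encodes the alpha chain that pairs with the products of Itgb3 and Itgb5, stood at -0.01 and -0.15 and did not pass. Without mouse 553, 3 of the 7 rose on each diet, with Itgb5 (1.17, adjusted p = 0.00231) added on the control diet and Itgb1 (0.25, adjusted p = 0.0315) on the high-fat diet.

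Lgals3 (ENSMUSG00000050335, chr14:47367751-47386160, plus strand, protein coding) was among the least changed genes of the 10. It stood at 8.72, 6.19, 5.10 and 5.61 CPM in WT-NCD and at 6.60, 6.01, 5.54 and 7.32 CPM in WT-HFD mice. The App-NCD mice had 21.0, 35.5, 36.2 and 5.93 CPM and the App-HFD mice 38.6, 32.8, 22.7 and 19.6 CPM. Mouse 553 (5.93 CPM, from 209 counts) lay inside the WT range, while the other 7 App mice lay above all WT mice. The increase was 3.85-fold on the control diet (log2 1.94 ± 0.41 SE, adjusted p = 0.0078) and 4.47-fold on the high-fat diet (log2 2.16 ± 0.41 SE, adjusted p = 0.00432). Without mouse 553 the control-diet value was log2 2.24 ± 0.24 SE (adjusted p = 1.76e-05). Of 4 related genes, Lgals3bp, which encodes a secreted galectin-3-binding glycoprotein, rose on both diets (log2 2.07 and 1.78, adjusted p = 2.28e-05 and 8.87e-05), and so did Lgals9 (1.18 and 1.24, adjusted p = 0.00708 and 0.00556). Lgals1 and Lgals8, encoding other galectins, did not pass on either diet (0.13 and -0.25 for Lgals1, 0.20 and 0.28 for Lgals8). Lgals8 passed on both without mouse 553 (0.32 and 0.25, adjusted p = 0.00883 and 0.0188).

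Among the surface receptors, Itgax (ENSMUSG00000030789, chr7:128129547-128150657, plus strand, protein coding) was nearly silent in WT mice. Its level was 9.26, 4.60, 5.22 and 5.56 CPM in WT-NCD and 6.19, 5.50, 4.34 and 7.54 CPM in WT-HFD mice. It reached 892, 673, 699.6 and 348 CPM in App-NCD and 699, 799.5, 558 and 508 CPM in App-HFD mice. The groups of the 2 genotypes did not overlap, and mouse 553 was the lowest App mouse. The increase was 106-fold on the control diet (log2 6.73 ± 0.36 SE, adjusted p = 2.87e-08) and 109-fold on the high-fat diet (log2 6.77 ± 0.36 SE, adjusted p = 3.63e-08). CD11c pairs with the beta-2 chain encoded by Itgb2, which rose on both diets by less (log2 2.01 ± 0.28 and 2.2 ± 0.28, edgeR adjusted p = 0.000338 and 0.00017). Itgal and Itgad, 2 other alpha chains that use the same partner, did not pass on either diet (0.68 and 0.45 for Itgal, 0.64 and 0.81 for Itgad). Itgax is also a marker of dendritic cells. The 5 dendritic cell markers Flt3, Zbtb46, Xcr1, Clec9a and Cd209a summed to 11.9 to 23.8 CPM in WT and 13.6 to 17.5 CPM in App mice. Of these, 0 of 5 were called on either diet, beside 6.5% and 5.09% of all genes called higher. Whether dendritic cells contributed to the Itgax level was not tested.

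Clec7a (ENSMUSG00000079293, chr6:129461591-129472779, minus strand, typed as a polymorphic pseudogene in the annotation) rose to a lesser degree. WT-NCD mice had 17.6, 11.1, 5.17 and 8.14 CPM and WT-HFD mice 5.98, 6.78, 5.28 and 10.0 CPM. App-NCD mice had 256, 304, 297 and 265 CPM and App-HFD mice 252, 268, 207 and 161 CPM. On the TMM scale mouse 553 lay within its group, and the lowest App mouse was far above the highest WT mouse. The difference was 26.7-fold on the control diet (log2 4.74 ± 0.35 SE, adjusted p = 6.26e-07) and 31.6-fold on the high-fat diet (log2 4.98 ± 0.35 SE, adjusted p = 5.12e-07). Of 5 genes of the dectin-1 signalling route, Plcg2, a phospholipase, rose on both diets (log2 1.11 and 1.30, adjusted p = 0.0146 and 0.00581) and Malt1, a paracaspase, on the control diet (1.05, adjusted p = 0.00776), while Malt1 was at 0.52 (adjusted p = 0.206) with high-fat feeding. The kinase gene Syk and the adaptor genes Card9 and Bcl10 did not pass on either diet, with log2 values of 0.59 and 0.73, 0.38 and 1.15, and 0.19 and 0.42. On the high-fat diet without mouse 553, 4 of the 5 rose, namely Plcg2, Malt1 (0.50, adjusted p = 0.0216), Card9 (1.13, adjusted p = 0.00208) and Bcl10 (0.40, adjusted p = 0.045).

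Axl (ENSMUSG00000002602, chr7:25757273-25788705, minus strand, protein coding) was already well expressed in WT mice, at 89.7, 64.2, 73.3 and 62.9 CPM on the control diet and 54.2, 66.5, 68.3 and 66.7 CPM on the high-fat diet. App-NCD mice had 401, 397, 407 and 57.3 CPM, and App-HFD mice 375, 440.0, 324 and 265 CPM. Of the App mice, 7 lay above every WT mouse, and mouse 553 fell among the WT values. The difference was 4.35-fold on the control diet (log2 2.12 ± 0.41 SE, adjusted p = 0.00473) and 5.5-fold on the high-fat diet (log2 2.46 ± 0.42 SE, adjusted p = 0.00196). Without mouse 553 the control-diet value was log2 2.44 ± 0.16 SE (adjusted p = 8.57e-08), and the 3 remaining mice had 401 ± 5.42 CPM (SD, n = 3). Axl belongs to the TAM family of receptors, whose ligands GAS6 and protein S bridge to phosphatidylserine on dying cells. Pros1, encoding protein S, rose on both diets (log2 1.24 ± 0.18 and 1.49 ± 0.18, edgeR adjusted p = 0.000396 and 8.87e-05). Gas6 did not pass (-0.49 and -0.31, adjusted p = 0.374 and 0.784). The sister receptor Mertk passed on the control diet (1.24, adjusted p = 0.00986) and was at 0.80 (adjusted p = 0.0928) on the high-fat diet, where it passed without mouse 553 (0.78, adjusted p = 0.00776). Tyro3, the third receptor, did not pass with all libraries (-0.97 and -0.30, adjusted p = 0.22 and 0.882), and was called lower on the control diet without mouse 553 (-0.62, adjusted p = 0.0225).

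Among the lysosomal and endosomal proteins, Cst7 (ENSMUSG00000068129, chr2:150570415-150578944, plus strand, protein coding) had the largest difference of the 10 genes. WT-NCD mice had 1.49, 0.985, 0.359 and 1.08 CPM and WT-HFD mice 0.923, 0.480, 0.679 and 2.46 CPM, from 51 to 350 counts a library. App-NCD mice had 807, 855, 888 and 1166 CPM and App-HFD mice 816, 929, 582 and 512 CPM, from 38116 to 85146 counts. No WT mouse exceeded 2.46 CPM and no App mouse fell below 512 CPM. The difference was 942-fold on the control diet (log2 9.88 ± 0.63 SE, adjusted p = 1.44e-07) and 625-fold on the high-fat diet (log2 9.29 ± 0.62 SE, adjusted p = 2.85e-07). Cystatin F acts on cathepsins C, L and H and on legumain, and 4 of 4 genes of these proteases rose on both diets on the TMM scale. Scaled to the microglial reference genes described further on, 1 was higher on the control diet (1.24% of all genes higher and 71% lower). With high-fat feeding 0 were higher and 2 lower (0.639% and 86.4% of all genes). Ctsl rose most among them (log2 2.29 and 2.02, adjusted p = 7.55e-06 and 2.73e-05), followed by Ctsh (1.51 and 1.88, adjusted p = 0.0128 and 0.00354). Ctsc (0.91 and 1.05, adjusted p = 0.00947 and 0.00384) and Lgmn (0.89 and 0.82, adjusted p = 0.0233 and 0.0363) rose by less, and each of these values was smaller than that of Cst7, a difference that was not tested itself.

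Gpnmb (ENSMUSG00000029816, chr6:49036546-49070929, plus strand, protein coding) had 5.96, 3.55, 2.83 and 2.71 CPM in WT-NCD and 3.70, 3.81, 2.97 and 3.85 CPM in WT-HFD mice. App-NCD mice had 483, 442, 338 and 683 CPM and App-HFD mice 396, 520.3, 389 and 298 CPM. The genotypes did not overlap, and mouse 553 was the highest of all on the TMM scale. The difference was 129-fold on the control diet (log2 7.01 ± 0.34 SE, adjusted p = 1.42e-08) and 112-fold on the high-fat diet (log2 6.80 ± 0.33 SE, adjusted p = 2.17e-08). GPNMB is a known target of the MiT/TFE transcription factors, and none of the 4 genes of that family, Mitf, Tfeb, Tfe3 and Tfec, passed on either diet with all libraries. Tfe3 stood at 0.52 and 0.64 and was called higher on both diets without mouse 553 (0.76 and 0.62, adjusted p = 0.00328 and 0.0062), as was Tfec on the high-fat diet (1.00, adjusted p = 0.0452).

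Cd68 (ENSMUSG00000018774, chr11:69664213-69666153, minus strand, protein coding) had 102, 56.9, 36.2 and 60.8 CPM in WT-NCD and 49.6, 45.6, 43.3 and 78.5 CPM in WT-HFD mice. App-NCD mice had 678, 658, 624 and 1663 CPM and App-HFD mice 603, 745, 542 and 385 CPM. All App mice lay above all WT mice, and the value of mouse 553 was far above that of the 3 other mice of its group, which lay close together. The difference was 14.2-fold on the control diet (log2 3.82 ± 0.40 SE, adjusted p = 2.3e-05), log2 3.33 ± 0.30 SE without mouse 553 (adjusted p = 3.07e-06), and 10.5-fold on the high-fat diet (log2 3.39 ± 0.39 SE, adjusted p = 6.4e-05). Of 4 other lysosomal membrane genes, Lamp1, Lamp2, Scarb2 and Npc1, 0 passed on either diet. Lamp1 had log2 values of 0.37 and 0.39 and passed on both diets without mouse 553 (0.38 and 0.37, adjusted p = 0.0351 and 0.024).

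Cd63 (ENSMUSG00000025351, chr10:128900989-128912822, plus strand, protein coding) had the smallest fitted genotype difference of the 10 on the TMM scale. WT-NCD mice had 327, 282, 521 and 277 CPM and WT-HFD mice 318, 234, 273 and 248 CPM. App-NCD mice had 395, 582, 558 and 159 CPM and App-HFD mice 511, 531, 425 and 369 CPM. The genotypes overlapped on the control diet, where mouse 553 was the lowest of all mice and WT mouse 11 (521 CPM) lay among the App mice, but not on the high-fat diet. The difference was 1.2-fold on the control diet (log2 0.27 ± 0.31 SE, adjusted p = 0.603) and 1.71-fold on the high-fat diet (log2 0.78 ± 0.32 SE, adjusted p = 0.184). Without mouse 553 the values for the control and the high-fat diet were log2 0.51 (adjusted p = 0.111) and 0.75 (adjusted p = 0.0147). Of 6 other tetraspanin genes 3 rose on both diets on the TMM scale. When scaled to microglial reference genes, 0 were higher and 3 lower on each diet, beside 71% and 86.4% of all genes called lower. The 3 that rose were Cd9 (log2 1.21 and 1.28, adjusted p = 0.000313 and 0.000215), Cd37 (1.48 and 1.83, adjusted p = 0.0128 and 0.00361) and Cd53 (1.60 and 1.66, adjusted p = 0.0108 and 0.00915), which is itself among the reference genes. Cd81, Cd82 and Cd151 did not pass, with values between -0.41 and 0.26.

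Ch25h (ENSMUSG00000050370, chr19:34473778-34475164, minus strand, protein coding, a single exon) had 7.62, 1.34, 1.18 and 2.56 CPM in WT-NCD and 1.90, 1.45, 0.970 and 1.85 CPM in WT-HFD mice. App-NCD mice had 15.7, 20.9, 23.5 and 8.71 CPM and App-HFD mice 15.3, 22.8, 18.2 and 9.35 CPM. The genotypes did not overlap, but WT mouse 4 (7.62 CPM) came close to mouse 553. The difference was 5.4-fold on the control diet (log2 2.43 ± 0.53 SE, adjusted p = 0.00964) and 10.6-fold on the high-fat diet (log2 3.41 ± 0.55 SE, adjusted p = 0.00126). Of 5 genes that act around the product, Gpr183, the receptor for a dihydroxylated oxysterol made from it, rose on both diets (log2 1.53 ± 0.24 and 1.56 ± 0.24, edgeR adjusted p = 0.000921 and 0.000886). The enzyme genes Cyp7b1 (-0.21 and -0.51), Hsd3b7 (-0.58 and 0.07), Cyp27a1 (-0.47 and 0.09) and Cyp46a1 (-0.48 and -0.39) did not pass with all libraries. Without mouse 553, Cyp7b1 (-0.62, adjusted p = 0.04) and Cyp46a1 (-0.53, adjusted p = 0.0324) were called lower on the control diet.

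Because general microglial RNA differed between genotypes, each gene was also set against the 15 microglial reference genes. Of these, 12 were called higher in App mice on the control diet and 14 on the high-fat diet, with a median log2 difference of 1.65 and 1.89, and 15 of 15 were called on both diets without mouse 553. When libraries were scaled to these genes, 7 of the 10 genes were higher in App mice on each diet (1.24% and 0.639% of all genes tested were called higher). These were Cst7, Itgax, Gpnmb, Spp1, Clec7a, Ch25h and Cd68. Cd63 was called lower on both diets on this scale, where it stood at log2 -1.38 ± 0.33 SE (adjusted p = 0.00117) and -1.16 ± 0.33 SE (adjusted p = 0.00321), although on the TMM scale its difference was above 0. The high-fat call rests on the choice of reference, since with homeostatic microglial genes in its place Cd63 was at -0.47 (adjusted p = 0.227). This scale lowers the median of all genes to -1.52 and -1.88, and 71% and 86.4% of all genes were called lower on it, so the fall of Cd63 was smaller than that of the median gene. The 10 genes had median log2 differences of 2.98 and 2.32 on the same scale.

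The size of the excess over microglial reference genes differed widely among the 10 genes. Cst7 was 371-fold and 189-fold higher on this scale (log2 8.54 ± 0.52 and 7.56 ± 0.50 SE, edgeR adjusted p = 1.13e-09 and 5.6e-09). Gpnmb (log2 5.71 and 4.89), Itgax (5.23 and 4.89) and Spp1 (5.18 and 4.05) had smaller values. On the control diet their order was not separated by their standard errors. On the high-fat diet the standard error of Spp1 (0.41) did not reach those of Itgax (0.29) and Gpnmb (0.39). The difference between these genes was not tested itself. Without mouse 553 Itgax (5.31 ± 0.31 SE) was above Gpnmb (5.19 ± 0.31 SE) on the control diet. Still smaller were the values of Clec7a (3.34 and 3.12), Cd68 (2.61 and 1.53) and Ch25h (1.07 and 1.51, adjusted p = 0.0155 and 0.00122). Without mouse 553, Cd68 was at 1.73 on the control diet, close to its value on the high-fat diet. For Axl and Lgals3 the rise was close to that of the reference itself. Axl on the control diet and with high-fat feeding was at log2 0.48 ± 0.35 SE (adjusted p = 0.215) and 0.52 ± 0.35 SE (adjusted p = 0.165), and Lgals3 at 0.32 ± 0.32 SE (adjusted p = 0.366) and 0.24 ± 0.32 SE (adjusted p = 0.481). Without mouse 553 both passed on the control diet, Axl at 0.78 (adjusted p = 0.00907) and Lgals3 at 0.58 (adjusted p = 0.0439), so that 9 of the 10 genes were higher there (1.08% of all genes). With high-fat feeding neither passed without that library, Axl at 0.52 (adjusted p = 0.0565) and Lgals3 at 0.24 (adjusted p = 0.364). With 10 homeostatic microglial genes (P2ry12, Cx3cr1, Tmem119 and others) as the reference instead, Axl passed on both diets at 1.01 and 1.20 (adjusted p = 0.0247 and 0.00848), and Lgals3 at 0.88 and 0.93 (adjusted p = 0.0325 and 0.0207). With that reference the call for Cd63 was lost on the high-fat diet (-0.47, adjusted p = 0.227). The call for Ch25h on the control diet was lost without WT mouse 11 (0.84, adjusted p = 0.057) or without WT mouse 5 (0.88, adjusted p = 0.0595).

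On the same scale the partner genes gave few rises, beside the 1.24% and 0.639% of all genes called higher. Since 71% and 86.4% of all genes were called lower on it, a lower call was the usual outcome there. Of the osteopontin receptors 1 of 7 was higher and 3 lower on the control diet, and 1 was higher and 5 lower on the high-fat diet. None was higher among the TAM receptors and ligands (2 and 3 of 4 lower), the integrin partners (1 and 2 of 3 lower), the dectin-1 signalling genes (3 and 5 of 5 lower), the galectins and binding protein (2 and 3 of 4 lower), the lysosomal membrane genes (3 and 4 of 4 lower), the oxysterol genes (4 and 4 of 5 lower) or the MiT/TFE genes (3 and 3 of 4 lower).

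**Figure D2:**
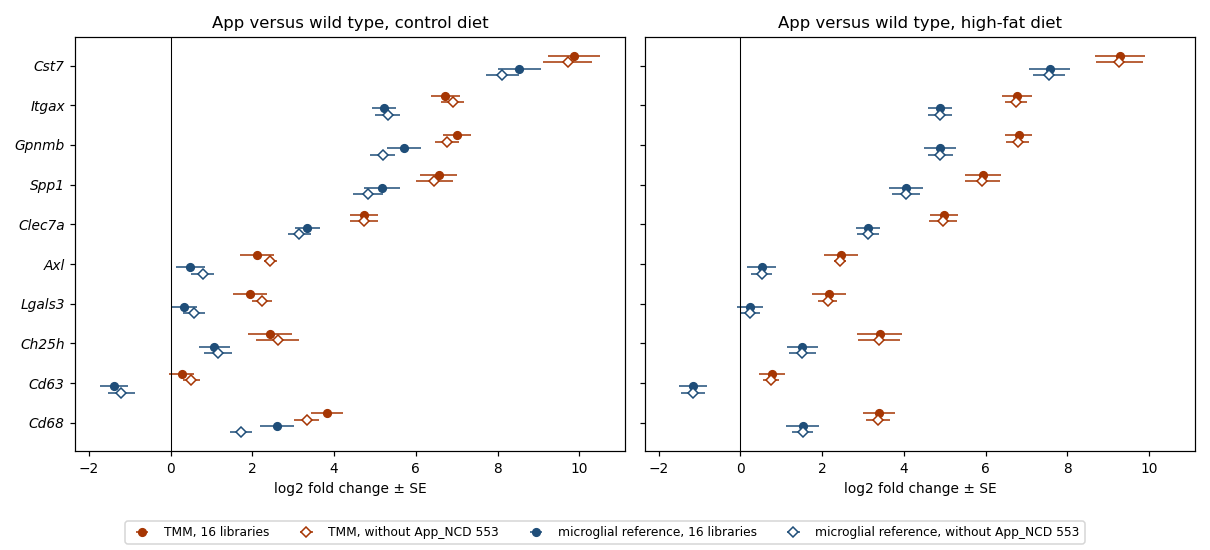
Log2 fold change of App over WT mice for each gene, with its standard error, on the control diet (left) and the high-fat diet (right). Red marks TMM scaling, blue scaling to the 15 microglial reference genes, and open diamonds the fit without App-NCD mouse 553. Axl and Lgals3 lie between 1.94 and 2.46 on the TMM scale and between 0.24 and 0.78 on the reference scale, and Cd63 lies below 0 on that scale alone.

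In single mice, the level of Cd63 minus the mean of the reference on the log2 scale was 0.44, 1.02, 1.85 and 0.97 in WT-NCD, 1.33, 1.10, 1.38 and 0.29 in WT-HFD, -0.28, 0.10, 0.02 and -0.94 in App-NCD and -0.09, -0.16, -0.04 and -0.01 in App-HFD mice. Every WT mouse lay above every App mouse on this measure. Axl minus the reference was -1.43, -1.11, -0.98 and -1.17 in WT-NCD and -1.22, -0.72, -0.62 and -1.60 in WT-HFD mice, against -0.26, -0.45, -0.44 and -2.41 in App-NCD and -0.54, -0.43, -0.42 and -0.49 in App-HFD mice. All App mice except mouse 553 lay above all WT mice, by a narrow margin. The 10 genes together summed to 8.09% to 15.2% of the summed reference in the 8 WT mice, to 29.1% to 36.7% in 3 of the App-NCD mice, to 69.5% in mouse 553 and to 26.3% to 29.4% in the App-HFD mice. Most of the WT sums was Cd63, with means of 352 CPM in WT-NCD and 268 CPM in WT-HFD beside median sums of 509.6 and 425.6 CPM. In App-NCD and App-HFD mice Cd63 averaged 424 and 459 CPM beside median sums of 4749 and 3989 CPM.

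**Figure D3:**
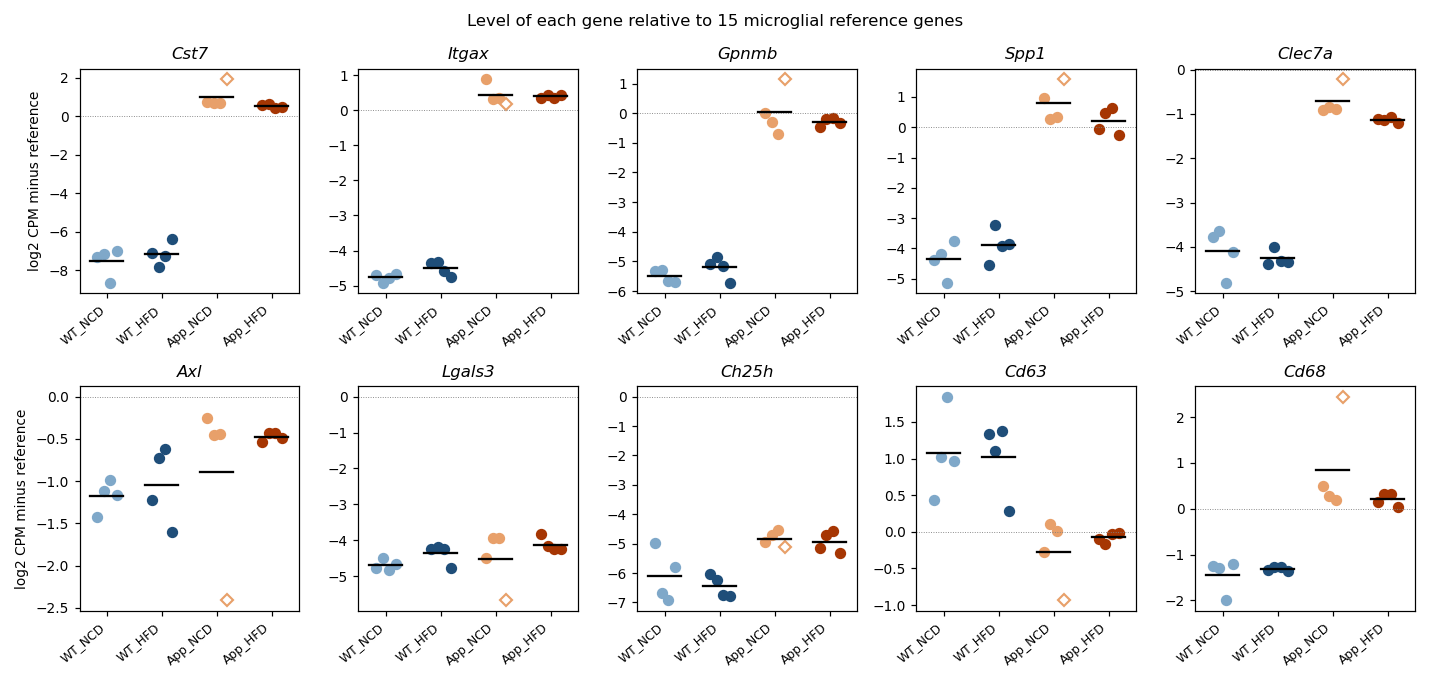
Level of each gene minus the mean of 15 microglial reference genes, on the log2 CPM scale, in every library by group. Points are mice, bars are group means, the dotted line marks equality with the reference and the open diamond is App-NCD mouse 553. Cd63 is the gene with lower values in App than in WT mice, and the App-HFD mice lie close together for most genes.

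**Figure D4:**
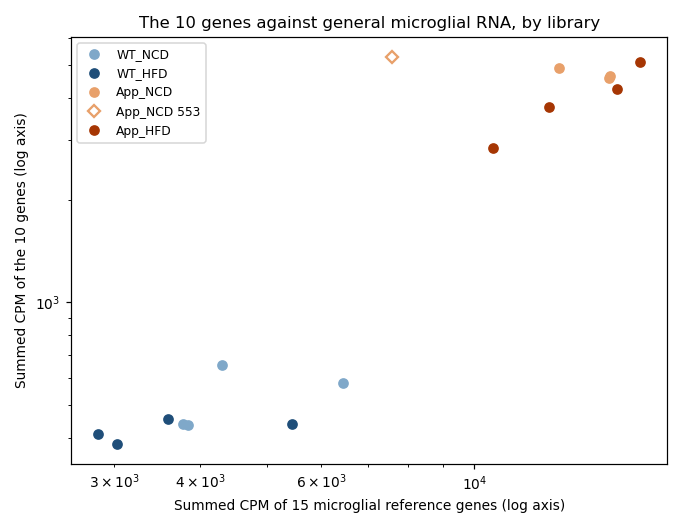
Summed CPM of the 10 genes (vertical log axis) against summed CPM of the 15 microglial reference genes (horizontal log axis), with 1 point per library coloured by group. WT libraries lie at the lower left and App libraries at the upper right. The open diamond for App-NCD mouse 553 combines the highest sum of the 10 genes with the lowest reference sum of any App mouse. Its place as the highest sum depends on the TMM factor of that library.

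The order of the genes by level differed between genotypes. Levels between genes are compared per kilobase of exon here, with all annotated exons of a gene merged. That length can exceed the length of the main transcript, which lowers the value, so the order is approximate. In WT-NCD mice Cd63 was highest (95.5 ± 31.3 CPM per kilobase, SD, n = 4), followed by Cd68 (50.9 ± 21.9), whose range overlapped with that of Cd63, and by Axl (14.4 ± 2.45), whose range did not overlap with that of Cd68. Gpnmb was lowest (0.577 ± 0.232), and Cst7 stood next to it (0.994 ± 0.476) with an overlapping range. WT-HFD mice also had Cd63, Cd68, Axl and Spp1 as the leading genes, in that order, and the mice's ranges for Cd68, Axl and Spp1 did not overlap with each other. In App-NCD mice Cst7 was highest (942 ± 164), then Cd68 (721 ± 402) and Spp1 (485 ± 88.7), and Cd63 was the fifth gene (115 ± 52.9). In App-HFD mice Cst7 (719.8 ± 199), Cd68 (452 ± 118) and Spp1 (354 ± 132) led as well. The ranges of neighbouring genes overlapped among these leading 3 genes in both App groups, so their order is not separated by the spread, whereas Spp1 and Itgax did not overlap. Without mouse 553, Cst7 (862 ± 41.3, n = 3) and Cd68 (520.0 ± 21.6) no longer overlapped in App-NCD mice, and Cd68 and Spp1 (459.6 ± 89.2) still did. Lgals3 and Ch25h were lowest in both App groups, at 13.3 ± 7.70 and 12.4 ± 4.71 CPM per kilobase on the control diet, and their ranges overlapped.

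The high-fat diet was compared with the control diet within each genotype, the comparison at the centre of the study's design. None of the 10 genes was called by edgeR in App mice, in WT mice or in the test of whether the diet difference depended on genotype. The share of all genes called was 0% in each of the 3 comparisons, and at an unadjusted p under 0.05 the counts among the 10 genes were 0, 0 and 0 (11.9%, 1.92% and 2.94% of all genes). DESeq2 and limma-voom called 0 of the 10 as well. In App mice, the log2 difference of HFD from NCD ranged from -0.67 for Cd68 to 0.21 for Lgals3, and 3 of 10 values were above 0. Cd68 stood at -0.67 ± 0.36 SE (adjusted p = 0.457) with mouse 553 and at -0.20 without it, and Spp1 at -0.45 ± 0.35 SE (adjusted p = 0.598). In WT mice the range was from -1.05 for Ch25h to 0.20 for Cst7. The Ch25h value (-1.05 ± 0.51 SE, edgeR adjusted p = 1) had the high level of WT-NCD mouse 4 in it, and its unadjusted p was 0.0499 without mouse 553. Clec7a stood at -0.58 ± 0.30 SE in WT mice (adjusted p = 1). The difference between the genotypes in the diet response ranged from -0.62 ± 0.50 SE for Spp1 to 0.98 ± 0.71 SE for Ch25h, with adjusted p-values from 0.851 to 0.983. The mice of the 2 diets overlapped for 10 of 10 genes in each genotype. Over all genes, HFD mice lay wholly above NCD mice for 3.24% in App and 1.57% in WT mice and wholly below them for 2.46% and 0.951%. The standard errors of these differences allow changes that the test would not detect.

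In the App-HFD group the mice differed together across the genes. App-HFD mouse 561 was the lowest of its group for 10 of 10 genes, and mouse 559 was the highest for 9 of 10 (mouse 547 was highest for Lgals3). These were also the mice with the lowest and the highest mean of the microglial reference in that group, 8.54 and 9.21 on the log2 CPM scale. Across the 10 genes the median SD of log2 CPM in App-HFD mice was 0.365, and relative to the reference it was 0.121, smaller for 10 of 10 genes. The SD was smaller on the relative scale for 9 of 10 genes in WT-NCD (medians 0.567 and 0.45), for 6 of 10 in WT-HFD (0.363 and 0.367) and for 5 of 10 in App-NCD mice (0.61 and 0.621 with mouse 553, 0.244 and 0.195 without it). Within App-HFD mice, Spp1 kept the widest spread on the relative scale (SD 0.42) and Itgax the narrowest (0.048). In WT mice, WT-NCD mouse 4 was highest for 9 of 10 genes and WT-HFD mouse 16 for 7 of 10. These 2 libraries also had the highest reference means of the WT mice (7.91 and 7.66), and 7 monocyte and neutrophil markers (Ccr2, Ly6c2, S100a8 and others) summed to 247 and 191 CPM in them against 9.03 to 39.2 CPM in the other 14 libraries, whose part in these levels was not tested. With both of these libraries and mouse 553 left out, 9 of 10 genes were called on the control diet and 10 of 10 on the high-fat diet. In the App-NCD group, mouse 553 was lowest in CPM for 5 genes (Itgax, Axl, Lgals3, Ch25h and Cd63) and highest for 3 (Cst7, Gpnmb and Cd68). Its TMM factor was 0.493, against 0.984 to 1.11 in the other libraries, which raises its CPM relative to its library total. The ranks for Cst7 and Gpnmb depend on this scaling, and so does the place of mouse 553 inside its group for Spp1 and Clec7a. Mouse 553 had 41091 Cst7 counts of 71444546 in all, and mouse 545 had 61100 of 69772745. For Spp1 and Clec7a mouse 553 had 32563 and 9323 counts, and mouse 545 had 47575 and 20435. For Gpnmb mouse 553 had 24055 counts, and mouse 537 had 50997 of 101709022. The high mitochondrial share of mouse 553 moved with these values, and its part in them was not tested.

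A further 20 genes of the plaque-associated state were set beside the 10. Of these, 17 rose on the control diet and 18 on the high-fat diet, with medians of log2 2.46 and 2.49, and 20 and 19 rose without mouse 553. On the microglial reference scale, 13 were higher and 1 lower on the control diet and 8 higher and 2 lower on the high-fat diet, with medians of 0.99 and 0.62. Of all genes tested, 1.24% and 0.639% were called higher on that scale and 71% and 86.4% lower. Lpl, encoding lipoprotein lipase, rose most (6.36 ± 0.45 and 5.81 ± 0.44 SE, edgeR adjusted p = 4.23e-07 and 9.07e-07), followed by Igf1 (4.30 and 4.24) and the chemokine gene Ccl6 (4.21 and 4.37). Trem2 rose by 2.75 and 3.51 (adjusted p = 0.00341 and 0.000746) and Tyrobp by 3.43 and 3.73 (1.54e-05 and 8.52e-06). Fabp5, a fatty acid binding protein gene, did not pass on either diet (0.80 and 0.74). Of the 10 homeostatic microglial genes, 7 and 8 also rose on the TMM scale, with medians of 1.02 and 1.14. On the reference scale none of these was called higher, and 3 and 5 were called lower, beside the 71% and 86.4% of all genes. Border macrophages could contribute some of the same genes, which was not tested. Of 6 markers of these cells (Mrc1, Cd163, Lyve1, F13a1, Pf4 and Cbr2) 0 were called on either diet. Their sums were 272 to 708 CPM in WT and 504 to 807 CPM in App mice, with median log2 differences of 0.29 and 0.54. Of all genes tested, 6.5% and 5.09% were called higher on the TMM scale. Of the 7 monocyte and neutrophil markers 0 were called either, with medians of -1.40 and -2.26. Without mouse 553 the calls among these control lists on the high-fat diet were Lyve1, higher (0.81, adjusted p = 0.0313), and Plac8 and the myelin gene Opalin, lower (-1.81 and -0.62, adjusted p = 0.0229 and 0.0184). On the control diet the dendritic cell marker Zbtb46 was lower (-0.53, adjusted p = 0.0342). Markers of some other cells did differ between genotypes with all libraries. Over all 21768 genes tested, 410 were called lower on the control diet and 446 on the high-fat diet. Of 4 choroid plexus and ependyma markers (Ttr, Kl, Foxj1 and Folr1) 0 were called on the control diet and 3 were lower on the high-fat diet, and their sums were 17296 to 35244 CPM in WT and 6849 to 20422 CPM in App mice. Of 4 haemoglobin genes 0 and then 4 were lower on these diets, with a median log2 value of -3.42 on the high-fat diet and sums of 377 to 8900.2 CPM in WT-HFD against 144 to 461 CPM in App-HFD mice. Of 5 endothelial markers 1 was lower on each diet, of 5 astrocyte markers 1 was lower on the control diet and 0 on the high-fat diet, and of 5 neuron markers 0 were called. Without mouse 553, 2 endothelial markers and 1 neuron marker were lower on each diet. Astrocyte markers then had 2 lower on the control diet, and 1 higher and 1 lower on the high-fat diet. Of 4 oligodendrocyte precursor markers 1 was higher on each diet and 1 lower on the high-fat diet. The part of these cells in the levels of the 10 genes was not tested.

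**Figure D5:**
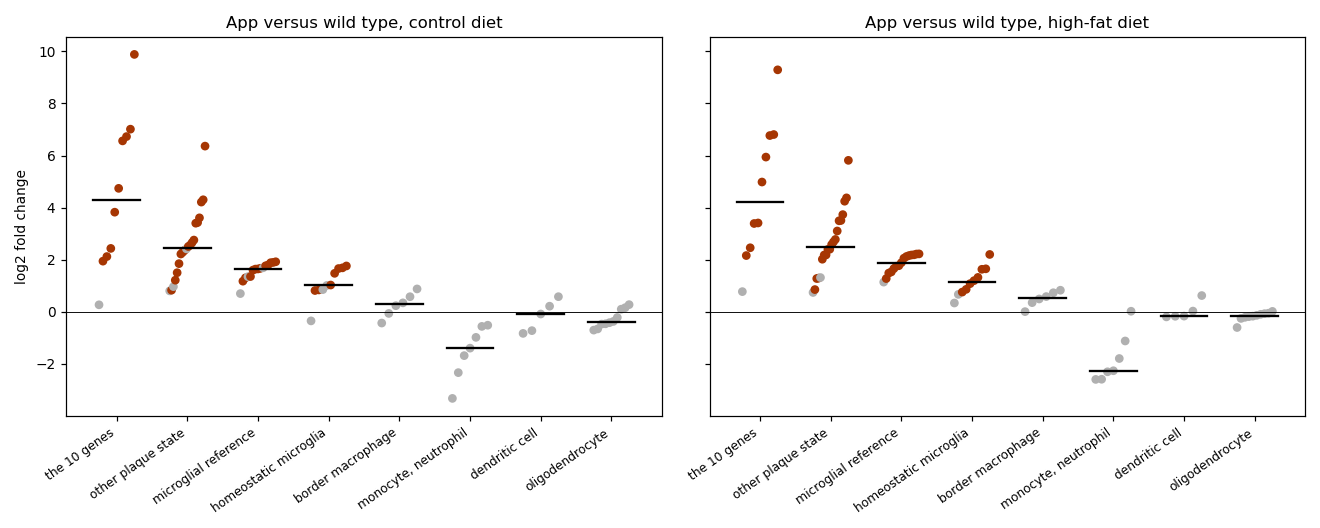
Log2 fold change of App over WT mice for the members of 8 gene lists, on the control diet (left) and the high-fat diet (right). Each point is a gene, red where its adjusted p was under 0.05, and bars are list medians, 4.28 and 4.20 for the 10 genes. No gene of the border macrophage, monocyte and neutrophil, dendritic cell or oligodendrocyte lists is red on either diet.

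For each of the 10, the genes with the most similar pattern were found by Pearson's r of log2 CPM over the 15 libraries without mouse 553. The 2 genotypes form separate clusters in these values, so r mainly restates the genotype difference, and between 1043 and 1346 genes had r above 0.9 with 9 of the 10 genes. The closest genes to Cst7 were Siglec5, Ptchd1 and Lpl (r = 0.996 each), and those to Spp1 were St8sia6, Pianp and Kcnj2. Among the closest genes to Itgax were Pdcd1 and Gusb, and among those to Gpnmb were Pdcd1 and Serpinb1c. Clec7a was closest to Igf1, Hexa and Milr1, Axl to Egln3, Asb10 and Hpse, Lgals3 to Abhd12, Syngr1 and Tyrobp, and Cd68 to Creg1, Plxdc1 and Ccl6. Ch25h followed Ctla2b, Ptgs2 and Rab32 (r from 0.978 to 0.982). Cd63 differed from the others, with 87 genes above 0.9, and was closest to Med11, Got1 and Fuca1 (r from 0.964 to 0.979).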

How the data were processed

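Poly(A) RNA of each mouse was sequenced from directional libraries, per the labels' protocols. Per the submitters' processing notes, reads were handled with fastp 0.23.2, HISAT2 2.2.1, StringTie 2.2.1 and bedtools 2.25.0 on mm10, and the annotation is not given in the sources used here. The deposited table holds estimated counts per gene, written by the authors as whole numbers. Where genes overlap or are nearly identical, StringTie may split their reads. For a symbol carried by several IDs the ID with the highest total was used.

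Groups follow the labels, and each library is a separate numbered mouse. No batch is named in the labels. Counts were fitted with edgeR 4.0.16 in R 4.3.3 (filterByExpr, TMM factors, robust quasi-likelihood test, 12 residual degrees of freedom), with 1 mean per group and Benjamini-Hochberg adjustment over all genes tested. A second fit scaled libraries to the mean log2 level of the microglial reference genes. Standard errors are the log2 fold change divided by the square root of the F statistic. CPM use TMM-scaled totals, and log2 CPM use a prior count of 0.5. DESeq2 1.42.0, limma 3.58.1 and the settings listed at the end were alternatives. The test was run on simulated data with known changes. Locations and exon lengths are GENCODE's and promoters RefSeq's, both of GRCm38. The genes named are the 10 members and, from fixed lists, the partners of the members and up to 6 genes by adjusted p. Some genes that this rule names are not reported here. The members and lists were chosen with earlier results of these data known.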

Additional observations from a re-analysis of the deposited data

Results flagged for a closer look

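In groups of 4 mice, 4 of 40 combinations of gene and group held a mouse whose gap to its nearest neighbour, as a share of the group's range, exceeded Dixon's critical value. Chance gives this in about 1 of 20 groups. In the App-NCD group, mouse 553 was far below the others for Axl (57.3 CPM, next 397 CPM) and far above them for Cd68 (1663 CPM, next 678 CPM). In the WT-HFD group, the lowest mouse was mouse 15 for Gpnmb (2.97 CPM, next 3.70 CPM) and mouse 2 for Axl (54.2 CPM, next 66.5 CPM). The Gpnmb value lies far below all App mice, and the Axl value far below the App mice other than mouse 553.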

How the results depend on the processing

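The number of the 10 genes called between genotypes ranged from 6 to 10 over 28 settings on the control diet and from 9 to 10 over 27 settings on the high-fat diet. Leaving out 1 mouse at a time gave 9 on the control diet and 9 to 10 on the high-fat diet. The 6 came from fitting only the 2 groups compared, where Axl (adjusted p = 0.0872), Lgals3 (0.0993) and Ch25h (0.102) were lost. The same fit without mouse 553 gave 9, and the cause was not tested. Scaling by library totals lost Lgals3 (adjusted p = 0.0559). Relative to the microglial reference, counts ranged from 7 to 10 on the control diet and 8 to 9 on the high-fat diet over 21 settings, and leaving out 1 mouse gave 7 to 10 and 8. These counts include Cd63 called lower, and genes called higher numbered 6 to 9 and 7 to 9. No member was called for diet or for its dependence on genotype in any setting. Fitted genotype differences kept their sign in 280 of 280 and 270 of 270 values. Of the uncalled diet values, 22 of 270 in App mice, 20 of 270 in WT mice and 23 of 260 for the dependence changed sign. Cst7 in WT mice turned to -0.51 with limma-voom, to -0.50 without WT-HFD mouse 16 and -0.083 without WT-NCD mouse 11 (range -0.50 to 0.48 with 1 mouse left out), and to -0.20 without App-NCD mouse 553, WT-NCD mouse 4 and WT-HFD mouse 16, a set chosen after seeing the data. Lgals3 in App mice turned to -0.29 with limma-voom and -0.11 without mouse 553 (range -0.11 to 0.45 with 1 mouse left out) or without those 3 libraries, and Ch25h turned to -0.054 for the dependence without the 3. The cause was not tested. Over all genes, 1826 were called on the control diet, 505 with only the 2 groups compared, 841 by library totals, 1191 at 2-fold or more, 939 to 3900 with 1 mouse left out, 4448 without the 3 libraries, 3130 scaled to oligodendrocyte markers, 3398 with DESeq2 and 7231 with limma-voom. On the high-fat diet 1554 were called, 4816 with only the 2 groups compared, 869 to 4307 with 1 mouse left out, 4768 without the 3, 2508 with DESeq2 and 6672 with limma-voom. The highest counts with 1 mouse left out were those without mouse 553. For diet, where edgeR called 0 genes, DESeq2 called 102 in App mice, 7 in WT mice and 3 for the dependence, and limma-voom 161 and 6 in App and WT mice. No paired analysis was possible because no mouse number is shared between groups. Depth limits Cst7 in WT mice most, with 51 counts in the lowest libraries.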
